A study of Homo sapiens with 6 samples.

Results

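ATF3, a transcription factor gene of the stress response, was examined for sites of hnRNP A1 cross-linking together with 9 other stress response genes, ATF4, DDIT3, JUN, FOS, EGR1, GADD45A, HSPA1A, HSPA1B and HSPA8. These 10 genes, of 20136 protein-coding genes annotated, were chosen by name, and a cluster (a called binding site) was counted for a gene when it overlapped the gene on the same strand. ATF3 is also an example trace in the paper on these libraries. There its exon has the most reads for the double mutant and is not bound in the slower band of the wild-type (WT) protein. Its spread over the libraries was therefore known beforehand. Of the 10 genes, ATF3 alone held a cluster. It held 3 of the 16269 clusters in the series, and all 3 lay at 1 site in a coding exon. The gene names in the deposited lists are those of the nearest transcription start, and by these names a single cluster belonged to any of the 10 genes. It was named for GADD45A, came from A1 replicate 2 and lay 13116 nucleotides (nt) beyond the end of that gene.

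The libraries came from PAR-CLIP, in which cells incorporate 4-thiouridine, ultraviolet light cross-links it to bound protein, and the cross-linked position is later read as a T-to-C change. HEK293T cells, an established human embryonic kidney line, were transiently transfected with plasmids for myc-tagged hnRNP A1, and RNA was recovered after immunoprecipitation with an anti-myc antibody. The 3 groups were A1dm, A1-HMW and A1. A1dm was the monomer band of the R75D/R88D double mutant. A1-HMW was a slower band of the WT protein that the paper describes as possibly dimeric, and A1 was the monomer band of the WT protein. Each group had 2 libraries from independent experiments, all groups carried tagged protein beside the cells' own hnRNP A1, the labels name no stress treatment, and no library of untagged or untransfected cells was among the samples.

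The A1dm lists held 232 and 596 clusters, those of A1-HMW 671 and 865, and those of A1 5805 and 8100. No read numbers came with the positions in these lists, so their depth is not known and a cluster counted as 1 whatever its height. The cell type could not be checked against marker genes, since the lists hold no RNA levels. For the same reason, a gene without a cluster cannot be told apart from a gene that was little transcribed or little covered in these cells. Of the clusters in protein-coding genes, exons took 35.1 and 38.2% in the A1dm libraries, 21.5 and 18.0% in those of A1-HMW, and 16.8 and 15.6% in those of A1. A run of at least 12 purines was present in 67.0 and 58.1% of the A1dm clusters, 84.5 and 87.0% of the A1-HMW clusters, and 98.1 and 96.6% of the A1 clusters.

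ATF3 belongs to the ATF/CREB family, whose members bind DNA through a basic region next to a leucine zipper (bZIP). In stressed cells, phosphorylation of the initiation factor eIF2 favors translation of ATF4, which in turn induces DDIT3 (also known as CHOP) and ATF3, whereas JUN, FOS and EGR1 are immediate early genes that are transcribed within minutes of a stimulus. GADD45A responds to DNA damage and growth arrest, HSPA1A and HSPA1B encode the heat-inducible chaperone HSP70, and HSPA8 encodes its constitutive relative. hnRNP A1 is a nuclear RNA binding protein that shuttles to the cytoplasm, acts in splicing and RNA transport, and is drawn to stress granules.

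The cluster site of ATF3 is printed with the second purine run of the same exon, which held no cluster, and with the pair of adjacent runs in FOS that encode the corresponding part of its own basic region. Sequences are given 5′ to 3′ on the RNA strand in DNA letters from hg19, and the capitals mark the run of 12 or more purines. Runs outside a cluster are printed with 3 nt on each side.
ATF3 cluster site: gaagaagatGAAAGGAAAAAGAGGc
ATF3 second run of exon 3: aacAAGAAGAAGGAGAAGAcgg
FOS first run of exon 3: tccAGAAGAAGAAGAGAAAAGGAGAAtcc
FOS second run of exon 3: tccGAAGGGAAAGGAAtaa

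The ATF3 site lay at chr1:212791478-212791502 on the + strand of hg19, within the gene ENSG00000162772 at chr1:212738676-212794119. It fell in coding exon 3 of the 4 exons of the canonical transcript (ENST00000341491), an exon of 108 nt at chr1:212791469-212791576 whose sequence encodes the beginning of the basic DNA-binding region. The site took up nt 10 to 34 of that exon, so that 9 nt separated it from the upstream splice site and 74 nt from the downstream one. In the mature transcript of 1940 nt it lay at nt 424 to 448, with its first base at position 250 of a coding sequence of 543 nt. The site was exonic in 9 and coding in 8 of the 10 annotated ATF3 transcripts, so its place in a coding exon hardly depended on the transcript chosen.

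**Figure D1:**
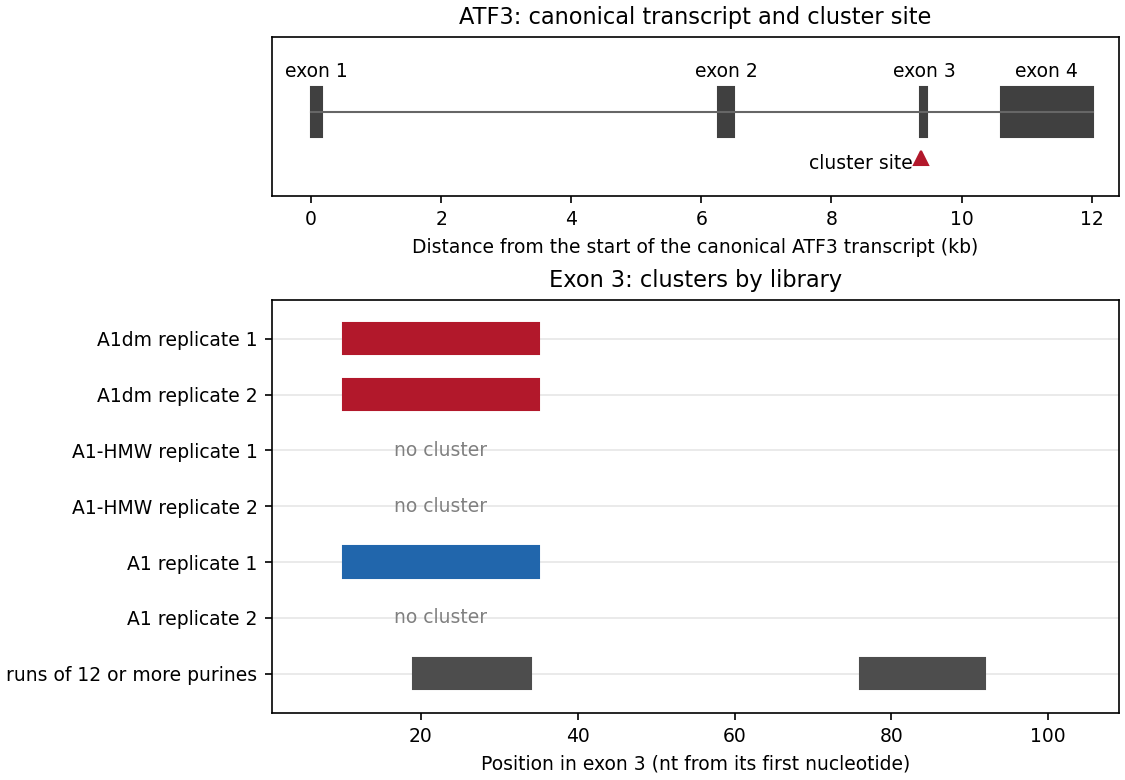
The upper panel draws the 4 exons of the canonical ATF3 transcript by distance from the transcript start in kb, with the cluster site marked by a triangle. The lower panel draws exon 3 by position in nt, with the clusters of each library as bars and the runs of 12 or more purines in grey: A1dm replicate 1, A1dm replicate 2 and A1 replicate 1 held the same cluster at nt 10 to 34, and no library held a cluster at the second run.

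Of the 25 bases of the site, 23 were purines (92%), with 14 A, 9 G, a single T and a single C. The T stood at position 9, directly upstream of a run of 15 purines, and the C was the last base. Since a cross-link needs a uridine, this T is the one position at which a T-to-C change could have been read within the cluster. Clusters with a single T made up 36.6 and 25.3% of the A1dm lists, 32.5 and 39.0% of the A1-HMW lists, and 47.2 and 45.5% of the A1 lists, so the ATF3 site was of a common kind. It also ended in a pyrimidine, as did 82.1 to 91.6% of the clusters of each library.

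The site held the letters AAGAAG, which were present in 12.8 and 14.1% of the A1dm clusters, 18.2 and 14.4% of the A1-HMW clusters and 16.9 and 16.9% of the A1 clusters. It did not hold GAGGAA, found in 18.1 and 22.4% of the A1dm clusters, 30.1 and 34.3% of the A1-HMW clusters and 34.2 and 33.1% of the A1 clusters. Nor did it hold TAGGG, a word known from selected hnRNP A1 ligands, which was present in 1.76 and 1.70% of the A1dm clusters, 1.79 and 1.85% of the A1-HMW clusters, and 2.21 and 2.41% of the A1 clusters. These words were searched on the RNA strand only, and their presence or absence in the window is a description of the letters. The 25-nt sequence occurred once in the genome, both strands searched.

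The cluster was present in A1dm replicate 1, A1dm replicate 2 and A1 replicate 1, with the same first and last base in all 3. No cluster overlapped it in A1-HMW replicate 1, A1-HMW replicate 2 or A1 replicate 2, although A1 replicate 2 was the longest list. The deposited annotation named the site for RN7SL512P, whose start lies 2195 nt away, and not for ATF3, since the site lies at nt 9376 counted along the gene from the start of the canonical transcript. A search by the names in the lists therefore finds no ATF3 cluster.

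ATF3 made up 1 of 232 clusters in A1dm replicate 1 (4.31 per 1000, 95% Wilson interval 0.761 to 24.01) and 1 of 596 in A1dm replicate 2 (1.68 per 1000, interval 0.296 to 9.44). In A1-HMW there were 0 of 671 clusters, which allows a share of up to 4.47 per 1000, and 0 of 865, which allows up to 3.47 per 1000. In A1 there was 1 of 5805 clusters in replicate 1 (0.172 per 1000, interval 0.0304 to 0.975) and 0 of 8100 in replicate 2, which allows up to 0.370 per 1000. Both A1dm values lay above both A1 values and above both A1-HMW values. The limits for A1-HMW lay within the A1dm intervals, so a difference between A1dm and A1-HMW was not detectable with lists of this size. The interval of A1 replicate 1 overlapped both A1dm intervals. The limit of A1 replicate 2 lay within the interval of A1dm replicate 2 but below that of A1dm replicate 1. A difference between A1dm and A1 was thus not resolved in every pair of libraries. Intervals and limits cover counting error only.

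**Figure D2:**
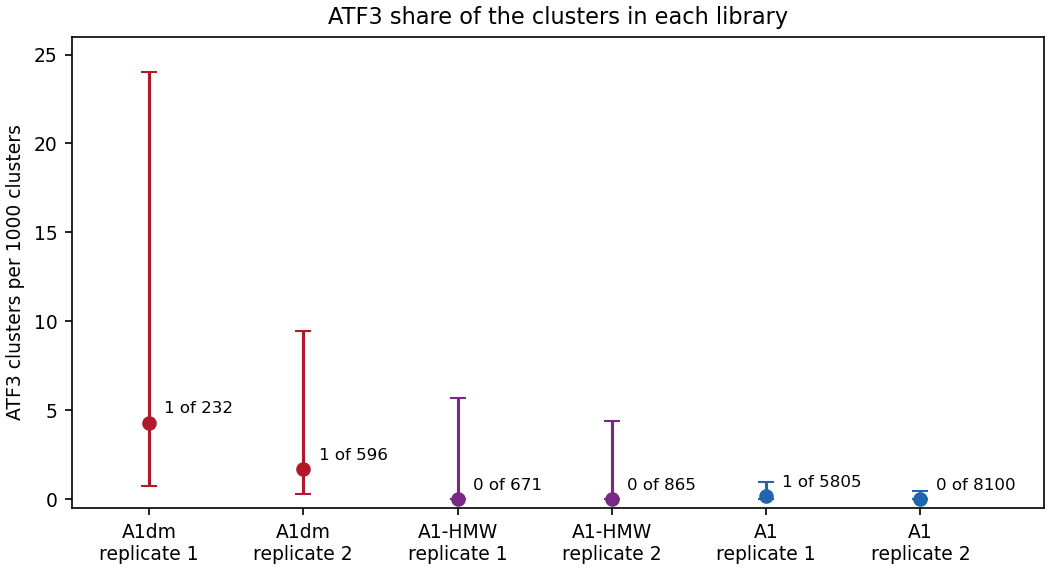
Points give ATF3 clusters per 1000 clusters of each library, bars the 95% Wilson interval, and labels the counts behind each point. The A1dm libraries stand at 4.31 and 1.68, the A1-HMW libraries at 0, and the A1 libraries at 0.172 and 0, with wide intervals where the list is short.

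The mean share was 2.99 ± 1.86 per 1000 for A1dm and 0.0861 ± 0.122 per 1000 for A1 (SD, n = 2 each), a difference of 2.91 per 1000 (exact two-sided permutation test, p = 0.333, the smallest p that 2 libraries against 2 can give). For A1-HMW against A1 the difference was -0.0861 per 1000 (exact permutation test, p = 1), and for A1dm against A1-HMW it was 2.99 per 1000 (exact permutation test, p = 0.333). No difference passed a threshold of 0.05, which this design cannot reach. In a gene with a cluster in both A1dm libraries, the order of A1dm above A1 depends largely on the list lengths. Of 45 such genes, 45 (100%) had both A1dm shares above both A1 shares. These were 1% of the 4498 genes with a cluster in either group.

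ATF3 was 1 of 16 genes with an exonic cluster in both A1dm libraries, 0.0795% of all protein-coding genes, and 1 of 45 with a cluster anywhere in the gene in both, 0.223%. Over sites in place of genes, 34 of 11416 distinct regions were covered in both A1dm libraries, and 10 of these were exonic. Of the 34, 25 were also covered in at least 1 A1 library and 19 in both, while 19 were covered in at least 1 A1-HMW library. Regions found in both A1dm libraries were thus mostly covered in A1 too, as at ATF3, and mostly in A1-HMW too, unlike ATF3. The A1 lists were the longest, and this overlap was not set against that of the other A1dm regions. The ATF3 pattern, both A1dm libraries and A1 replicate 1 without the other libraries, was shared by 3 of the 34 regions, the others being an intron of RAPGEF1 and a site outside annotated genes on chromosome 1. Of the 28 regions found in both A1dm libraries and in at least 1 other library, 5 had identical boundaries in every library that held them, and the ATF3 site was among these.

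The genes whose exonic clusters were spread over the 6 libraries most like those of ATF3 were ranked by the sum of absolute differences in cluster number, and no gene matched ATF3 in all 6 libraries. At a difference of 1 cluster, 4 gene entries shared all 3 ATF3 libraries and had a further cluster in A1 replicate 2: CCDC13, the overlapping gene model ENSG00000280571 that shares its cluster, HSP90AA1 and MKI67. HSP90AA1 encodes the stress-inducible cytosolic chaperone HSP90 alpha, and MKI67 encodes Ki-67, a nuclear protein of proliferating cells. The next 6 in rank, from 12 genes tied at 2 shared libraries and taken in order of symbol, were AKT1S1, GPATCH2L, IGF2BP1, KRR1, NAA15 and RBM22. Counts of 0 and 1 make this a coarse likeness. At a difference of 1, the ranking allowed the 4 closest entries at most 1 exonic A1-HMW cluster each, and none of them had one. Beside the ATF3 site, the single exonic sites of the closest matches are printed because all lie in coding exons.
HSP90AA1, exon 9 of 11: agaggatGAAGAAGAGAAAAAGAAGc
MKI67, exon 9 of 15: AAGAGAGGAGGGAGAAAGAGt
CCDC13, exon 2 of 16: gatGGAGAAAAAGAGGGAAAAAGAAc

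The HSP90AA1 site (chr14:102549445-102549470, - strand) was the nearest in form to that of ATF3, with identical boundaries in A1dm replicate 1, A1dm replicate 2, A1 replicate 1 and A1 replicate 2. It held 1 T at position 7, followed by a run of 18 purines and a final C, against a T at position 9 and a run of 15 in ATF3. Both sites held the letters GATGAA around the T, a word chosen after the sequences had been seen. GATGAA was present in 3.96 and 3.40% of the A1dm clusters, 2.84 and 2.43% of the A1-HMW clusters, and 2.31 and 2.14% of the A1 clusters. KRR1, lower in the same ranking, also held it, in its A1dm replicate 2 cluster in coding exon 10. The MKI67 site (chr10:129910503-129910523, - strand) also had identical boundaries in its 4 libraries, but its T was the last base, after 20 purines. The CCDC13 site (chr3:42799726-42799751, - strand) began 1 nt further upstream in A1dm replicate 1 than in the other 3 libraries.

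The other 9 genes held no cluster on their strand in any of the 6 libraries. A cluster was present in any library in 23% of protein-coding genes, in either A1dm library in 2.81%, in either A1-HMW library in 4.55% and in either A1 library in 21.6%, so 1 of 10 genes was not more than the share over all genes for the libraries together. An exonic cluster in any library was found in the same 1 of 10 genes, beside 5.61% of all protein-coding genes. These genes were short. Apart from ATF3, which spans 55444 nt over all its transcripts and 12015 nt in the canonical one, they spanned 2404 to 7204 nt, with a median over all 10 of 3615 nt against 27219 nt over all protein-coding genes. Their exons were closer to the usual size, with a median total of 2875 nt against 4388 nt. Among protein-coding genes that span under 10 kb, 4.15% had a cluster in any library, 0.571% in A1dm, 0.762% in A1-HMW and 3.7% in A1, with an exonic cluster in any library in 2.17%, and 0 of the 9 shorter genes examined had one. With 9 genes, 0 could not be told apart from these shares.

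The exons of these genes were not free of purine runs. They held 35 runs of 12 or more purines in all, of 12 to 41 nt, and 1 of these carried a cluster, that of ATF3. Of the 35 runs, 15 lay in coding exons of the canonical transcripts, 22 had a T directly beside them and 31 had one within 3 nt, and 11 were longer than the run of 15 at the ATF3 site. The presence of a long run with a neighboring T therefore did not separate the site with a cluster from the 34 runs without one. Over all genes, 1.22% of 97968 exonic runs overlapped a cluster in any library, 0.154% in A1dm, 0.185% in A1-HMW and 1.12% in A1, so that most exonic runs in the genome held none.

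**Figure D3:**
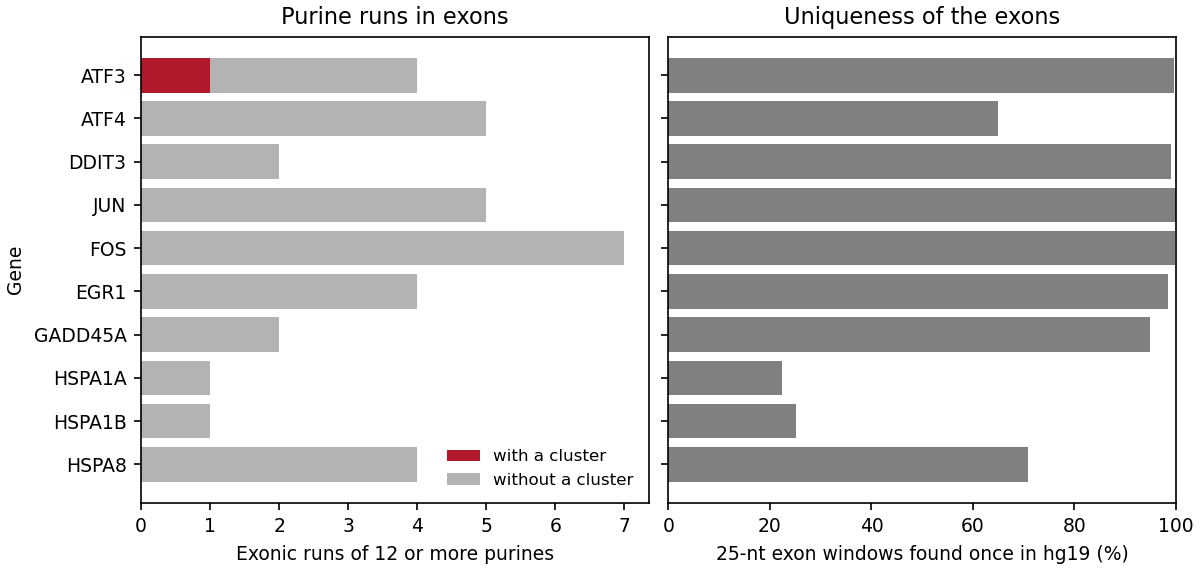
The left panel counts the runs of 12 or more purines in the exons of each gene, with red for the run that overlapped a cluster and grey for those that did not. The right panel gives the percentage of 25-nt windows of the exons that occur once in hg19: 1 of 4 ATF3 runs held a cluster, none of the 31 runs in the other genes did, and HSPA1A and HSPA1B had the lowest percentages, 22.4 and 25.2%.

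Within ATF3, the second purine run of exon 3 (chr1:212791544-212791559) lay 41 nt downstream of the cluster and was the longer of the pair, with 16 purines, but its nearest T was 6 nt away. The remaining exonic runs of ATF3 lay in exons of other transcripts and in introns of the canonical one, with 15 and 12 purines, and held no cluster. The introns of ATF3 contained 52 further runs, none with a cluster, beside 0.616% of 1069029 intronic runs over all genes that overlapped one. All ATF3 clusters were thus at 1 of its 56 runs.

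Among the bZIP genes, FOS, the partner of JUN in the AP-1 dimer, had the most exonic runs of the 10 genes, 7, and no cluster. The first run of its exon 3, at chr14:75747271-75747293, had 23 purines with a T directly after it, and the next, at chr14:75747297-75747309, had 13. JUN, a gene of 1 exon, had 5 exonic runs, of which 4 lay in the 3′ UTR and 1 in the 5′ UTR, and the longest had 21 purines. ATF4 had 5, of which 4 lay in coding exon 3 and the longest, of 21, in an exon of another transcript. DDIT3 had 2, both in coding exon 4. The longer one, at chr12:57910809-57910827 on the - strand, had 19 purines. The longest coding runs of ATF4 and DDIT3 and the coding run of FOS exon 4 are shown to set beside the ATF3 site, since none of them held a cluster.
ATF4, coding exon 3, 17 purines: ggcAAGGGGGAAGAAAAGGGtcc
DDIT3, coding exon 4, 19 purines: ctcAGGAGGAAGAGGAGGAAGAcca
FOS, coding exon 4, 16 purines: gctGAAGGAGAAGGAAAAActa

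EGR1, a zinc finger transcription factor of the immediate early response, had 4 exonic runs, all in the 3′ UTR, and held the longest of all, with 41 purines. GADD45A had 2 exonic runs, of 12 and 13 purines, both in introns of its canonical transcript. HSPA8 had 4, each of 12 purines, of which 2 were coding. HSPA1A and HSPA1B had 1 each, with the same letters, cacAAGAGGAAGGAGctg, in coding exon 1. The pair are near-identical copies, and 22.4% of the 25-nt windows of HSPA1A and 25.2% of those of HSPA1B occur once in the genome. ATF4 (64.9%) and HSPA8 (70.9%) were also below the others, which ranged from 94.98 to 99.9%. The paper says that reads with a unique place in the genome were clustered into its peaks. Whether the same holds for the deposited lists, a different set, is not given. The part of repeated sequence in the absence of clusters was not tested.

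Clusters near the genes, within 20 kb on either side, were found at 3 of the 10 loci. The most were at the DDIT3 locus, with 11 clusters in 5 libraries, of which 10 lay on the opposite strand. Of these, 5 marked 1 exonic site of MARS1, the methionyl-tRNA synthetase gene that converges on DDIT3, and it was present in A1dm replicate 2, A1-HMW replicate 1, A1-HMW replicate 2, A1 replicate 1 and A1 replicate 2. This site lay 3903 nt beyond the end of DDIT3 on its side, and as the cluster of A1dm replicate 2 gives it, at chr12:57906446-57906468, it is printed with the neighboring cluster of GADD45A that carries a wrong name.
MARS1 site near DDIT3: GAAAGAGGAAAGAAGGAAGAGtt
cluster named for GADD45A: GAAGGAAGGGAAAGGGGAAGAGAAAt

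The single DDIT3 neighbor on the strand of DDIT3 came from A1 replicate 2 and lay 2777 nt upstream of the gene, outside annotated genes on that strand. Near EGR1, 1 site 17140 nt upstream on the EGR1 strand was present in A1 replicate 1 and A1 replicate 2. The cluster named for GADD45A (chr1:68167133-68167158, + strand) lay 15787 nt from the start it was named for, in no gene on its strand and antisense to GNG12. No cluster of any library lay within 20 kb of ATF3, ATF4, JUN, FOS, HSPA1A, HSPA1B or HSPA8, the ATF3 site itself aside.

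A total of 5 wider lists of stress genes, 165 genes with the first 10 included, placed ATF3 among its relatives. They were the AP-1 and ATF/CREB bZIP factors (31 genes), immediate early genes (42), genes of the integrated stress response and unfolded protein response (44), heat shock proteins and chaperones (40), and GADD45 and DNA damage response genes (27), and a gene could stand in several. Of the 165 genes, 38 (23.03%) had a cluster in any library, beside 23% of all protein-coding genes. An A1dm cluster was found in 9 (5.45%), an A1-HMW cluster in 10 (6.06%) and an A1 cluster in 35 (21.2%). In exons of any transcript, 6 genes (3.64%) had an A1dm cluster, 4 (2.42%) an A1-HMW cluster and 10 (6.06%) an A1 cluster, beside 1.02, 0.929 and 4.98% of all genes in the same order. Beside all genes, with no test, the stress lists stood close for A1 clusters anywhere in the gene (21.2 against 21.6%) and higher for A1dm (5.45 against 2.81%) and A1-HMW (6.06 against 4.55%).

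**Figure D4:**
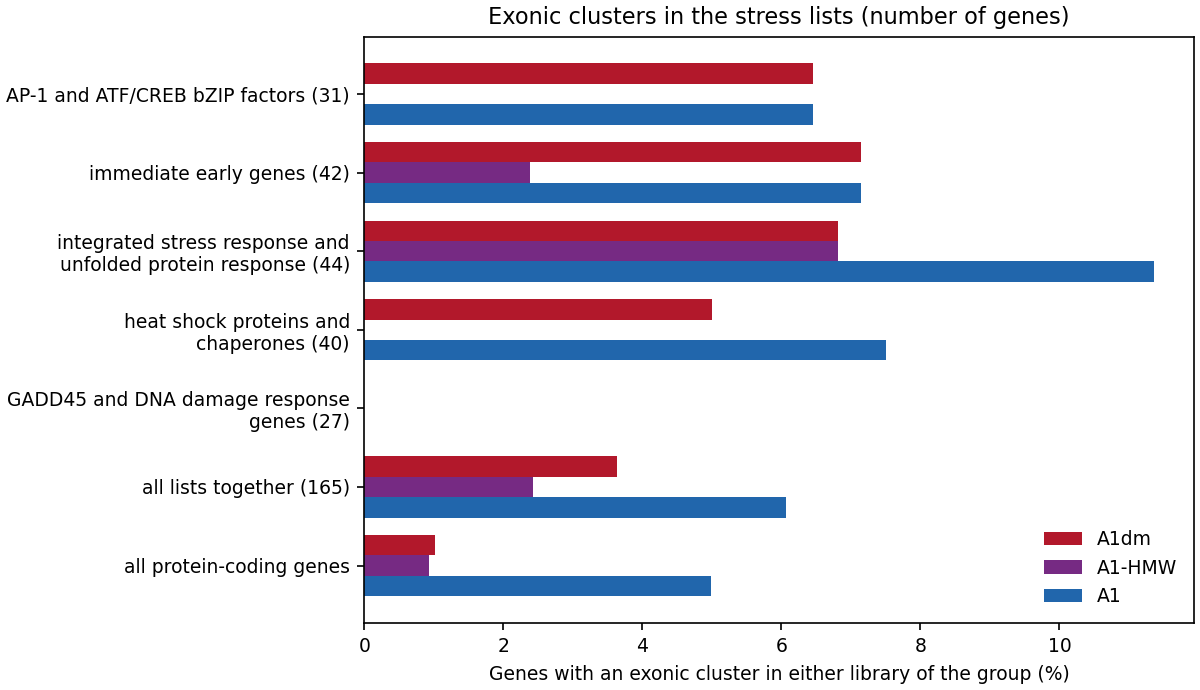
Bars give the percentage of genes in each list with an exonic cluster in either library of the group, for A1dm, A1-HMW and A1, with all protein-coding genes at the bottom and the number of genes in parentheses. The 165 genes together stand at 3.64% for A1dm, 2.42% for A1-HMW and 6.06% for A1, and the bars of the single lists rest on 0 to 5 genes each.

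By list, an exonic A1dm cluster was found in 2 of 31 bZIP genes, 3 of 42 immediate early genes, 3 of 44 genes of the integrated stress response and unfolded protein response, 2 of 40 heat shock and chaperone genes, and 0 of 27 GADD45 and DNA damage response genes. For A1-HMW these counts were 0, 1, 3, 0 and 0, and for A1 they were 2, 3, 5, 3 and 0. ATF3 stands in 3 of these lists and is 1 of the genes counted for A1dm and A1 in each. When only exons of the canonical transcripts were counted, 6 genes remained for A1dm (ATF3, HSP90AA1, HSP90B1, JUND, MCL1 and STC2), 2 for A1-HMW (MCL1 and STC2) and 6 for A1 (ATF3, ATF7, HSP90AA1, MCL1, PPP1R15A and STC2). The clusters of the 165 genes made up 17.2 and 15.1 per 1000 in A1dm (Wilson intervals 6.72 to 43.5 and 7.96 to 28.4), 11.9 and 11.6 per 1000 in A1-HMW (6.05 to 23.3 and 6.29 to 21.1), and 5.86 and 5.68 per 1000 in A1 (4.19 to 8.17 and 4.26 to 7.57). The A1dm and A1-HMW shares did not overlap those of A1, although the intervals of the A1dm and A1-HMW libraries all reached into that of A1 replicate 1. Of these clusters, 3 and 6 were exonic and 1 and 3 intronic in A1dm. In A1, 8 and 9 were exonic and 26 and 37 intronic. Exons also took more of all A1dm clusters in protein-coding genes (35.1 and 38.2%) than of those of A1 (16.8 and 15.6%). The lists were chosen with earlier results known, and their shares were not set against those of other genes.

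**Figure D5:**
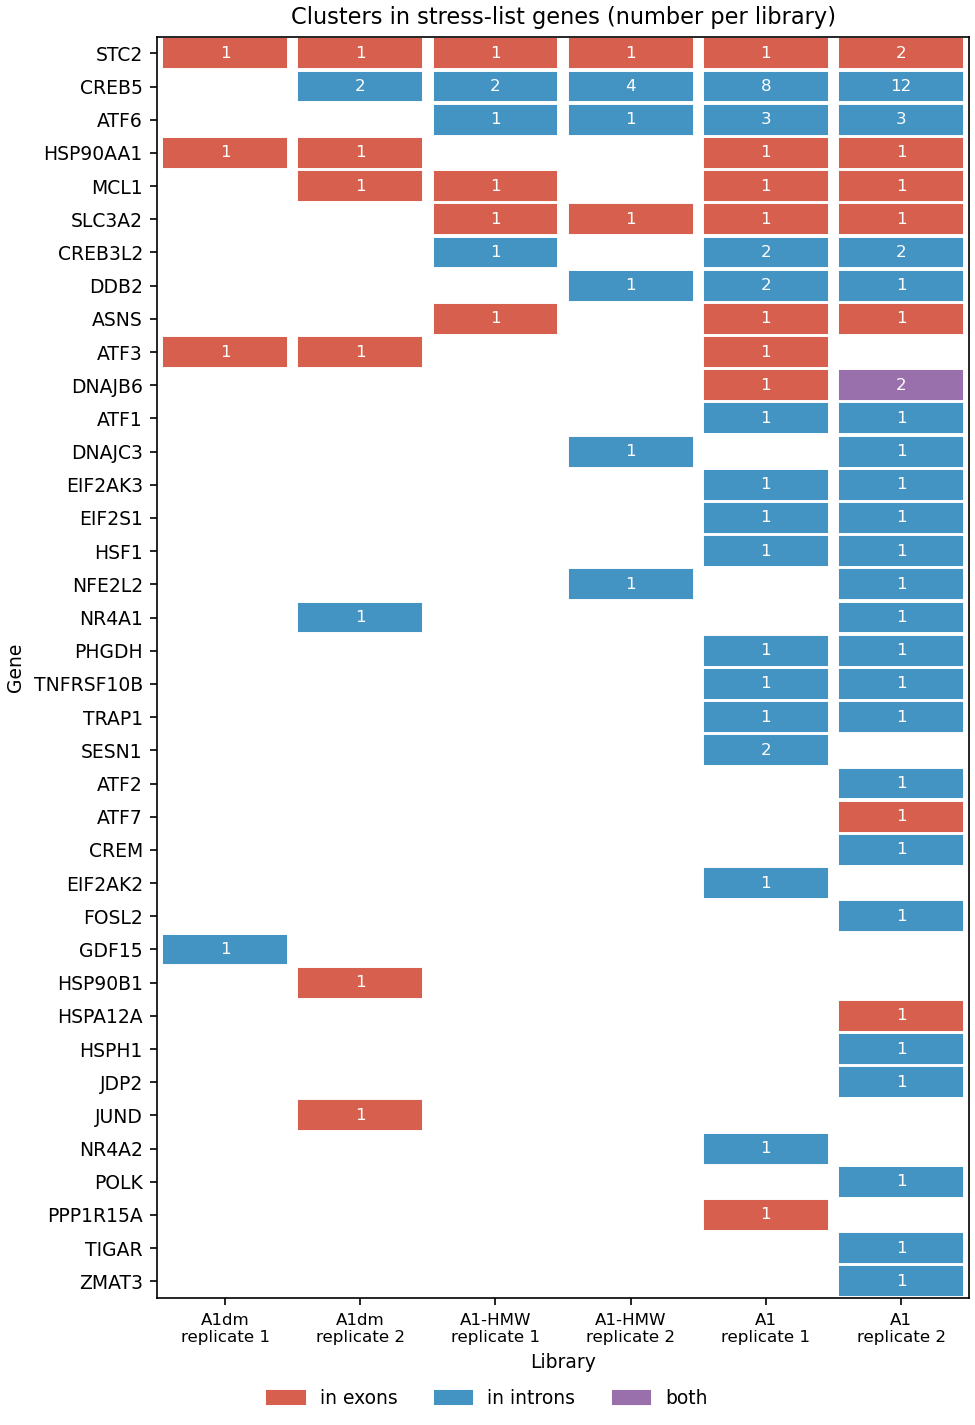
Numbers give the clusters in each of the 38 stress-list genes with any cluster, 1 row per gene and 1 column per library, with color for exons of any transcript, introns or both. STC2 is filled in all 6 libraries, ATF3 in 3, and most intron-only genes are filled in the A1 columns alone.

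Genes of these lists with a cluster in both A1dm libraries were ATF3, HSP90AA1 and STC2, and in all 3 the clusters were exonic. They were 1.82% of the 165 genes, beside 0.223% of all protein-coding genes with a cluster in both and 0.0795% with an exonic one. Over all genes, 16 of the 45 with a cluster in both had exonic clusters in both. The lists were chosen with earlier results known, ATF3 among them, and the shares were not tested. STC2, which encodes the secreted glycoprotein stanniocalcin 2 and is induced through ATF4, had 1 cluster in each A1dm library, 1 in each A1-HMW library, 1 in A1 replicate 1 and 2 in A1 replicate 2. Unlike ATF3, its clusters lay in the untranslated regions, and its A1dm libraries marked different sites. A1dm replicate 1 held the 3′ UTR site, which was also present in both A1-HMW and both A1 libraries, and A1dm replicate 2 held a 5′ UTR site shared with A1 replicate 2. MCL1, an anti-apoptotic BCL2 relative, had 1 site in its 3′ UTR in A1dm replicate 2, A1-HMW replicate 1 and both A1 libraries.

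HSP90B1, the HSP90 of the endoplasmic reticulum, and JUND, a JUN relative, each had 1 cluster in A1dm replicate 2 and none elsewhere. The HSP90B1 cluster (chr12:104332195-104332223, + strand) lay in coding exon 7 of 18, and the JUND cluster (chr19:18390732-18390758, - strand) in the 3′ UTR of a gene of 1 exon. These exonic sites are printed because together with ATF3 and HSP90AA1 they cover the stress-list genes with an A1dm cluster in a canonical exon.
STC2, 3′ UTR, as in A1dm replicate 1: GGGAAAGGAAAGAAGAGAAtgaagac
MCL1, 3′ UTR, as in A1dm replicate 2: ggtttGGGAAAGGAGGAGGGGAGt
HSP90B1, coding exon 7: agtAGAGGAAGAAGAAGAAGAAAAGAAAc
JUND, 3′ UTR: aaagaaatGGGAAGAAGAAAAAAAAAt

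Some named genes had no A1dm cluster. SLC3A2, which encodes the heavy chain of amino acid transporters, had 1 cluster in each A1-HMW library and 1 in each A1 library. ASNS, the asparagine synthetase gene, had 1 in A1-HMW replicate 1 and 1 in each A1 library. In both genes the site lay in an exon of some transcript but in an intron of the canonical one. The ASNS site was 51 nt from the nearest canonical exon, and the SLC3A2 site was 620 nt from it for the A1-HMW clusters. Neither therefore had the coding position of the ATF3 site in its canonical transcript.

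Other genes named by the rule had intronic clusters alone. The bZIP gene CREB5, which spans 526572 nt, held 28 clusters, with 0 and 2 in A1dm, 2 and 4 in A1-HMW, and 8 and 12 in A1. ATF6, the transmembrane sensor of the unfolded protein response, held 8, with 0 and 0 in A1dm, 1 and 1 in A1-HMW, and 3 and 3 in A1. CREB3L2 held 5, with 0 and 0 in A1dm, 1 and 0 in A1-HMW, and 2 and 2 in A1. DDB2, a damage recognition gene of nucleotide excision repair, held 4, with 0 and 0 in A1dm, 0 and 1 in A1-HMW, and 2 and 1 in A1. None of the clusters of these 4 genes was exonic, whereas none of the ATF3 clusters was intronic. The single cluster of ATF7, a bZIP gene that spans 118555 nt, was exonic and came from A1 replicate 2.

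Genes of the lists that span under 10 kb numbered 69, and 2 of them (2.90%) had a cluster, beside 4.15% of all protein-coding genes of that size. These were JUND and PPP1R15A, which encodes GADD34, the regulatory subunit that leads to dephosphorylation of eIF2. PPP1R15A had 1 cluster in A1 replicate 1 at chr19:49377589-49377614, in coding exon 2 of 3, and like the ATF3 cluster it was coding. It is shown as the single coding site in a gene of that size in these lists.
PPP1R15A, coding exon 2: gatGAGGAAGAGGGAGAAGctgaggc

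Over the 12 genes named by the rule for the wider lists, ATF3 included, 72 clusters fell in 34 regions, of which 9 were exonic and 7 in exons of the canonical transcript. All 72 clusters held a run of 12 or more purines, their purine content ranged from 76 to 96.8%, and 67 ended in a pyrimidine. GAGGAA was present in 15 of the 72 and GATGAA in 7, the 3 of ATF3 and the 4 of HSP90AA1. Exonic clusters per kb of exon were 1.38 for STC2, 0.785 for HSP90AA1, 0.750 for ATF3, 0.643 for MCL1, 0.518 for JUND and 0.0764 for HSP90B1 over the 6 libraries together. These are the stress-list genes with an exonic A1dm cluster, ATF3 included. A site counts once for each library that holds it, so the values also reflect recurrence over libraries of unlike list length.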

How the data were processed

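PAR-CLIP was performed on HEK293T cells with 2 libraries per group. According to the methods, the authors trimmed reads with BBduk, discarded short reads and ribosomal RNA, mapped with STAR and used wavClusteR for T-to-C changes and PARalyzer for the peaks of the paper, and the submitters' processing notes name Bowtie and hg19. The deposited lists are wavClusteR clusters called per library and annotated with HOMER, a set other than the PARalyzer peaks. The paper's supplement describes reads per PARalyzer cluster, which were not used here. Their deposited score column held 0 in every line, and the other columns used hold coordinates in nt, so these files give no depth and the list length (232 to 8100) sets the precision.

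Clusters were placed by strand (overlap of at least 1 nt) on GENCODE release 44 lifted to the same build, with exons before introns. The start in the cluster identifier was used, 1 nt below the listed start in 100% of lines, and with it 100% of the clusters with a sequence held a T. Exons of any transcript counted as exonic, and exon numbers are those of the canonical transcript. Intervals are 95% Wilson intervals, and a count of 0 was given the limit of 3 counts. Groups were compared by exact two-sided permutation tests over library values (SciPy 1.17.1, NumPy 2.4.6, Python 3.11.15), tested on simulated data. The paper describes independent experiments that each gave all 3 bands, so A1 and A1-HMW may share an immunoprecipitate, but the labels do not say that a replicate number marks an experiment. Over 4622 genes, the deviations of same-numbered libraries had Pearson r from -0.00917 to 0.00940. With so few clusters per gene, this cannot decide whether the libraries are paired. They were not paired in the main test, and a test with the replicate number as a block is given below.

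The 10 genes, the 5 wider lists and the tests were chosen with earlier results of these data known. Genes named from the wider lists were those with a cluster in both A1dm libraries, in at least 3 libraries, or with an exonic A1dm cluster. PPP1R15A, GATGAA and the sites near the genes were singled out after their values had been seen. The nearest-start gene names were used as an alternative only. A gene of the wider lists is not reported here and was left out of their counts. Motif words and purine runs were read from the reference sequence.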

Additional observations from a re-analysis of the deposited data

How the results depend on the processing

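The comparisons of ATF3 depended most on how clusters were assigned to genes. By the nearest-start names in the lists, the ATF3 differences A1dm minus A1, A1-HMW minus A1 and A1dm minus A1-HMW were all 0, as were the number of the 10 genes with an A1dm cluster (0) and their A1dm clusters per 1000 (0), because the lists name the site for another gene. The replicate block left the differences at 2.91, -0.0861 and 2.99 per 1000, with exact permutation p = 0.5, 1 and 0.5, where 0.5 is the smallest p that the block allows, so it changed no call. With only clusters in genes as the denominator the differences were 3.55, -0.111 and 3.66 per 1000, and with regions of either replicate as the unit they were 1.16, -0.0946 and 1.26. Leaving out 1 library at a time gave 1.59 to 4.22 for A1dm minus A1, -0.172 to 0 for A1-HMW minus A1, and 1.68 to 4.31 for A1dm minus A1-HMW. Over the same omissions, the clusters of the 10 genes per 1000 ranged from 1.68 to 4.31 in A1dm and from 0 to 0.172 in A1. Without A1 replicate 1, 0 of the 10 genes had an A1 cluster, against 1 with it, so the presence of ATF3 in A1 rests on that library. By value, 7 of 61 alternatives moved a result beyond the spread between replicates or the tolerance for a count, and 54 did not. Among the 54 is the number of genes with an A1 cluster by nearest-start names, again 1, but that gene was GADD45A in place of ATF3. The start as listed, a stricter overlap with the gene, exons of the principal transcripts, extended clusters and a run of 10 purines were among the 54. Lists of 232 and 596 clusters limit what could be seen in A1dm and cannot tell a site that was not bound from one that had too few reads.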
